A study of Mus musculus with 27 samples.

Results

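Transcript levels of 6 genes were followed across the 27 libraries: 5 scavenger receptors (Cd163, Stab1, Msr1, Marco and Scarb1) and the complement receptor Vsig4. They were chosen by name as 6 of the 19069 genes with a symbol in the deposited table. All 6 passed the filter on low values (at least 1 CPM in at least 3 libraries) and so were among the 13297 genes tested. Marrow cells from the femur and tibia of C57BL/6 mice received 5 Gy of protons as a FLASH beam (an ultra-high dose rate), 5 Gy as a standard beam, or no irradiation. All groups alike were then grown for 7 days in CSF-1 at 10 ng/ml, the factor that turns marrow precursors into macrophages. For 2 further days each kind of cell was kept in LPS at 100 ng/ml (labelled M1), IL-4 at 20 ng/ml (labelled M2) or control medium (labelled M0), which gave 9 groups of 3 libraries. Irradiation therefore preceded differentiation in these cultures, and the age and sex of the mice are not given in the labels. Nor do the labels say whether replicates came from separate animals or cultures, and p-values therefore reflect only how these libraries vary, which may be technical variation.

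Scavenger receptors are surface proteins by which macrophages take up modified lipoproteins, microbes, dead cells and plasma proteins. CD163 binds haemoglobin-haptoglobin complexes, and stabilin-1 (Stab1) clears matrix proteins such as SPARC and modified lipoproteins. MSR1 and MARCO are collagenous class A receptors for modified lipoproteins and bacteria, and SR-BI (Scarb1) exchanges cholesterol with high-density lipoprotein. VSIG4 (CRIg) binds complement C3b and iC3b on particles and marks resident macrophages such as Kupffer cells. LPS and IL-4 each drive a distinct macrophage program, and CD163 is much used as a marker of alternatively activated macrophages, particularly in human cells.

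The levels of these genes differed several-fold between the groups, so the start-site windows of the 4 genes found in the RefSeq promoter table (GRCm38.p6) are shown. Each window is read 5′ to 3′ on the gene's strand, and capitals mark GAGGAA, the ETS core bound by the myeloid factor PU.1 (Spi1). The windows are Cd163 at chr6:124304401-124304700 on the plus strand, Stab1 at chr14:31168592-31168891 on the minus strand, Vsig4 at chrX:96293389-96293688 on the minus strand and Marco at chr1:120504975-120505274 on the minus strand.
Cd163: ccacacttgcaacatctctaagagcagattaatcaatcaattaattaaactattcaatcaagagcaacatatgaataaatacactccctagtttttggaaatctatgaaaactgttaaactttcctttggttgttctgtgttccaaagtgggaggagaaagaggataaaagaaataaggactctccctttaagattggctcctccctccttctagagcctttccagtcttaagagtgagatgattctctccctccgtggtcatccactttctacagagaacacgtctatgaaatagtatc
Stab1: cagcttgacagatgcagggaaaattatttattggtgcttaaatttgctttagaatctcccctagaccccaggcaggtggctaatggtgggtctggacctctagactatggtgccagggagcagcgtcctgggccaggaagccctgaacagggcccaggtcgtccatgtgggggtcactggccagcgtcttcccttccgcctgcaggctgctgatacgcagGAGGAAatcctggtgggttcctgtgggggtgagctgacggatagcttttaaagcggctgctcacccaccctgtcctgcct
Vsig4: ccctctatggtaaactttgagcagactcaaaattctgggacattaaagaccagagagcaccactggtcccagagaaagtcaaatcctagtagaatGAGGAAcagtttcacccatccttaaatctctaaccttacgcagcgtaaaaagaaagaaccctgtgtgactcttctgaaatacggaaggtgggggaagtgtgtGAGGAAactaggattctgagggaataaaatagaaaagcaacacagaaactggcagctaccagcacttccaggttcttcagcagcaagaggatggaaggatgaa
Marco: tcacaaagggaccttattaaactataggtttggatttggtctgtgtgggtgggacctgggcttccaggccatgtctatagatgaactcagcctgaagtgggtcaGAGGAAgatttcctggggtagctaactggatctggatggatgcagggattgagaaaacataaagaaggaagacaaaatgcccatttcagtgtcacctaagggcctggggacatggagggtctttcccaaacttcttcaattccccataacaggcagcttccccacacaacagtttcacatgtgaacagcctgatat
With the first transcribed base counted as 1 and a match named by its leftmost base, GAGGAA begins at -30 in Stab1, at -155 and -53 in Vsig4 and at -146 in Marco. It has no match in the Cd163 window. Of the 32851 promoters in the table, 28.3% hold GAGGAA on either strand. The Maf-type core TGCTGA, held by 19.5% of promoters, begins at -43 in Stab1 and lies on the opposite strand at 24 in Vsig4. The kappaB-type pattern, held by 4.79% of promoters, matches as GGGTCTTTCC at -30 in Marco. Both strands were searched for 4 more patterns, which had no match in the 4 windows: the AP-1 site TGANTCA (7.81% of promoters), the STAT6-type site (6.95%), the C/EBP-type site TTGCNNAA (10.8%) and the TATA box TATAAA (13.6%). None of the matches named here overlaps another. Msr1 and Scarb1 are named only.

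Depth, recovered from the smallest step between values, was 20.7M to 25.8M reads per library, so that 1 read stood for 0.0373 to 0.0487 CPM. The lowest library held 11 reads of Cd163 and 19 of Vsig4, and counting error is large there. Macrophage markers were present throughout: Csf1r ranged from 784 to 2257 CPM, and Adgre1 (listed as Emr1), the F4/80 antigen, from 417 to 5964 CPM. The summed level of 11 markers of endothelium, which also expresses Stab1 and Scarb1, was 154 to 387 CPM in FLASH and 170 to 357 CPM in standard libraries, against 249 to 451 CPM in non-irradiated ones, and its part in the results was not tested. Of these, Eng ranged from 75.6 to 177 CPM, Vwf from 11.3 to 291 CPM, Stab2 from 3.22 to 45.1 CPM, Pecam1 from 2.83 to 29.0 CPM and Kdr from 0.486 to 18.8 CPM. The 6 others stayed lower, with Cdh5 at most 4.22 CPM, Tie1 2.09 CPM, Emcn 1.57 CPM, Tek 1.35 CPM, Cldn5 0.694 CPM and Lyve1 0.41 CPM. The p53 targets Cdkn1a and Phlda3 separated the irradiated libraries from the others. Cdkn1a lay at 478 to 858 CPM in all 18 irradiated libraries and at 168 to 353 CPM in the 9 non-irradiated ones. Each library was also placed by LPS response genes and by IL-4 response genes, none of them a member, on a pair of scales where 0 is the mean of non-irradiated M0 libraries and 1 that of non-irradiated M1 (LPS axis) or M2 (IL-4 axis). On these scales 5 irradiated libraries, each of replicate number 1, did not match their labels. High IL-4 axis values were found in the library labelled FLASH M0 (0.727) and in that labelled standard M1 (0.806). High LPS axis values were found in the libraries labelled FLASH M2 (0.962) and standard M2 (1.001). The library labelled FLASH M1 was low on both, at -0.162 for LPS and -0.175 for IL-4. Member calls and the counts of most gene lists are given over all 27 libraries and again without these 5. Leaving them out was an alternative chosen after the data were seen. All 5 are irradiated, so comparisons within non-irradiated cells keep the same libraries and the same folds in both fits. Only the SE and adjusted p differ there, because the spread is estimated over all groups.

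**Figure D1:**
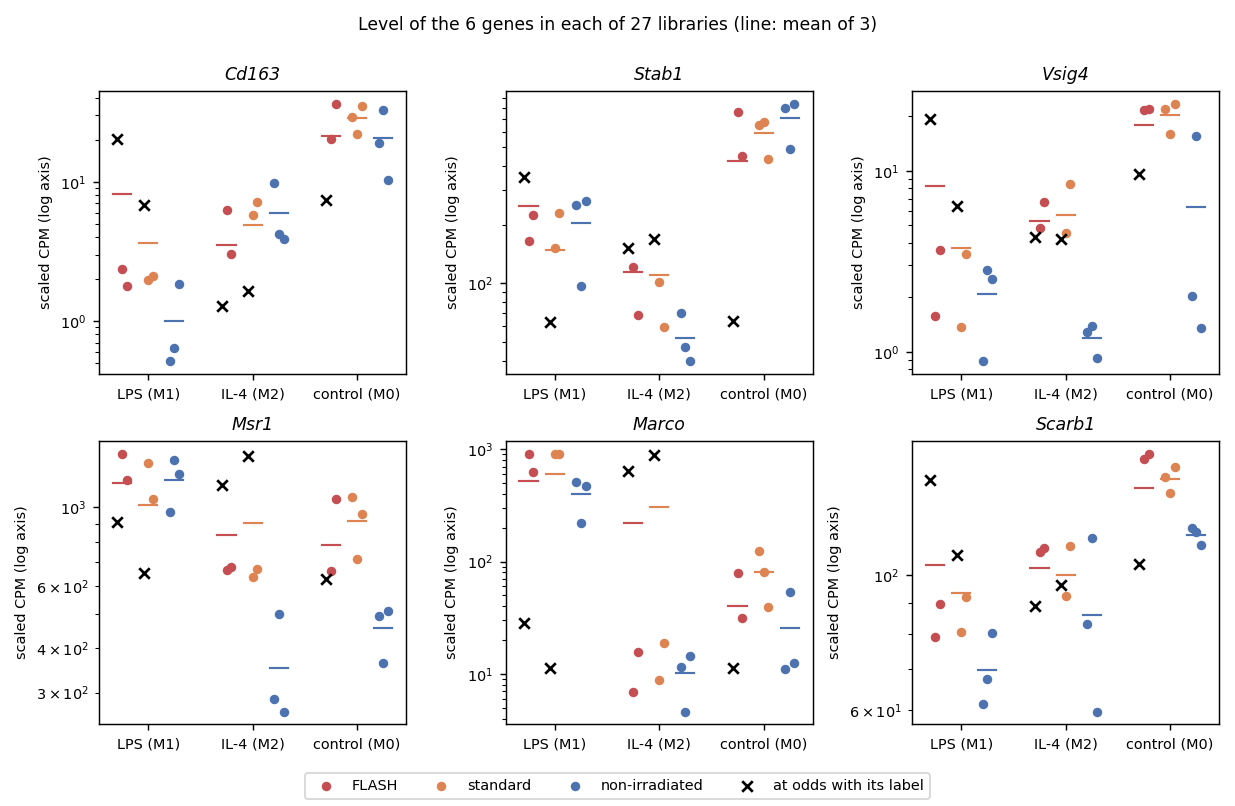
Level of each of the 6 genes in each of the 27 libraries as scaled CPM on a log axis, by culture condition and, within it, FLASH, standard and non-irradiated cells from left to right; lines are means of 3 libraries and crosses are the 5 libraries at odds with their labels. Marco lay at 222 to 514 CPM in non-irradiated LPS libraries and at 11.1 to 53.1 CPM in non-irradiated control-medium libraries.

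With those 5 left out, 4 members had their highest group mean in control medium, and Msr1 and Marco had theirs in LPS. Cd163 was highest in standard M0 cells at 28.6 ± 6.38 CPM (SD, n = 3) and lowest in non-irradiated M1 cells at 0.997 ± 0.735 CPM (SD, n = 3), a ratio of 28.7. Stab1 ran between 708 CPM in non-irradiated M0 cells and 52.4 CPM in non-irradiated M2 cells, a ratio of 13.5. Vsig4 had its highest mean, 21.9 CPM, in FLASH M0 cells and its lowest, 1.197 CPM, in non-irradiated M2 cells. The widest span was that of Marco, with 905 CPM in standard M1 cells and 10.1 CPM in non-irradiated M2 cells, a ratio of 89.3. Msr1 and Scarb1 spanned less, with ratios of 3.73 and 2.25 between the highest and lowest group means. Scarb1 was highest in FLASH M0 cells and lowest in non-irradiated M1 cells. When the 9 group means of a gene were put in order, most neighbours overlapped. Of 8 neighbouring pairs, 4 were apart for Scarb1, 3 for Cd163, 2 each for Stab1, Vsig4 and Marco, and 1 for Msr1. With all 27 libraries, 1 of 8 pairs was apart for Msr1 and 0 of 8 for each of the other members. Groups that lost a library hold 2, and 2 libraries lie apart from a neighbour more easily than 3. The share over all genes was not computed for ordered neighbours, so these counts are a description only.

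LPS moved the receptors in opposite directions in non-irradiated cells. Cd163 and Scarb1 were called lower and Msr1 higher. Stab1 was called lower and Marco higher only without the 5 libraries, with the same folds in both fits. Over all 27 libraries 3 of the 6 members were called at an adjusted p below 0.05 in limma, 1 higher and 2 lower, where 17.4% of all genes were called (9.87% higher and 7.54% lower). In the 22 other libraries 5 members were called, beside 34.7% of all genes. The median log2 fold change of the 6 members was -0.78, beside -0.01 over all genes tested. Of all genes, 22.8% were higher and 22.5% lower in every non-irradiated LPS library than in every non-irradiated control-medium library. Summed marker levels of other cells also differed with LPS in non-irradiated cells, and their part in these results was not tested. They were 156 to 340 CPM in LPS libraries, against 597 to 1023 CPM in control medium, for 12 neutrophil markers. For 10 dendritic cell markers they were 467 to 1180 CPM in LPS libraries, against 1954 to 3269 CPM. For 6 monocyte markers they were 250 to 293 CPM in LPS libraries, against 96.5 to 183 CPM. Of these 6, 1 was called higher (Plac8, 1.81, adjusted p = 0.00777) and 1 lower (Ccr2, -2.14, adjusted p = 0.00232) over all libraries. Without the 5 libraries 3 were called higher and 1 lower. The 10 macrophage markers overlapped, at 14238 to 28492 CPM in LPS libraries, against 16888 to 21310 CPM.

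Cd163, the haemoglobin scavenger, held 0.512, 0.64 and 1.84 CPM in the non-irradiated LPS libraries, against 19.1, 32.8 and 10.4 CPM in non-irradiated control medium. The lowest control library was above the highest LPS library by a wide margin. The log2 fold change was -3.79 ± 0.76 (SE), with an adjusted p of 0.00379 over all libraries and 2.24e-06 without the 5. This fall passed whichever library was left out. It was seen in irradiated cells as well once the 5 libraries were left out, at -3.44 ± 0.52 in FLASH cells (adjusted p = 0.000104) and -3.50 ± 0.47 in standard cells (adjusted p = 3.78e-05).

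Stab1 measured 253, 96.5 and 266 CPM in non-irradiated LPS libraries, against 797, 488 and 839 CPM in control medium, with no overlap. Its log2 fold change of -1.88 ± 0.67 missed the threshold over all libraries (adjusted p = 0.0573) and passed it without the 5 (SE 0.38, adjusted p = 0.000973). The fall was called in FLASH cells at -1.60 (adjusted p = 0.0186) and in standard cells at -1.63 (adjusted p = 0.0102), again without the 5 libraries.

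Vsig4, the complement receptor, held 0.884, 2.84 and 2.52 CPM in non-irradiated LPS libraries, against 2.03, 15.5 and 1.35 CPM in control medium. Replicate 2 of the control medium stood far above the other pair, and the groups overlapped. The log2 fold change of -0.81 ± 0.72 was not called (adjusted p = 0.465, and 0.323 without the 5 libraries). In irradiated cells Vsig4 was lower in LPS once the 5 libraries were left out. FLASH M1 libraries held 1.57 and 3.63 CPM, against 21.8 and 22 CPM in FLASH M0, a log2 fold change of -2.94 ± 0.73 (adjusted p = 0.00653). Standard M1 libraries held 1.36 and 3.45 CPM, against 21.8, 16 and 23.5 CPM in standard M0, a log2 fold change of -2.93 ± 0.66 (adjusted p = 0.00369).

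Msr1 rose with LPS in non-irradiated cells. It measured 972, 1363 and 1242 CPM there, against 494, 364 and 512 CPM in control medium, and the groups did not overlap. The log2 fold change was 1.39 ± 0.33 (adjusted p = 0.00899, and 0.00015 without the 5 libraries), and the call held whichever library was left out. In irradiated cells the LPS change of Msr1 was not called. Leaving out the 5 libraries, it was 0.64 ± 0.28 in FLASH cells (adjusted p = 0.115) and 0.39 ± 0.26 in standard cells (adjusted p = 0.316).

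Marco, the other class A receptor, held 514, 222 and 467 CPM in non-irradiated LPS libraries, against 11.1, 53.1 and 12.5 CPM in control medium. The groups were far apart. The log2 fold change of 4.23 had an SE of 1.81 and an adjusted p of 0.109 over all 27 libraries. Without the 5 the SE was 0.60 and the adjusted p 3.63e-05. Marco also rose in FLASH cells by 3.91 ± 0.74 (adjusted p = 0.00091) and in standard cells by 3.62 ± 0.67 (adjusted p = 0.000813) without the 5 libraries. With them, the folds were 3.03 and 1.53 and neither was called (adjusted p = 0.453 and 0.726).

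Scarb1 measured 61.4, 67.5 and 80.3 CPM in non-irradiated LPS libraries, against 120, 118 and 112 CPM in control medium, with no overlap. Its log2 fold change was -0.75 ± 0.22 (adjusted p = 0.0233, and 0.00172 without the 5 libraries). The call was lost without any of 5 single libraries: the 3 of non-irradiated M0 and replicates 1 and 2 of non-irradiated M1, with adjusted p between 0.0508 and 0.08. Scarb1 fell by 0.89 in FLASH cells (adjusted p = 0.00319) and by 0.74 in standard cells (adjusted p = 0.00691) without the 5 libraries.

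Over all 27 libraries, 0 of 6 members were called for LPS in FLASH cells and 0 of 6 in standard cells, where 0% of all genes were called by limma in each. At an unadjusted p under 0.05 there were 2 members and 1543 genes in all in FLASH cells, and 4 members and 2070 genes in standard cells. Without the 5 libraries 5 of 6 were called in FLASH cells (24.6% of all genes) and 5 of 6 in standard cells (23.4% of all genes): Cd163, Stab1, Vsig4 and Scarb1 lower and Marco higher. Since the FLASH M1, FLASH M2, FLASH M0, standard M1 and standard M2 groups each lose a library, those comparisons rest on 2 libraries against 2 or 3.

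**Figure D2:**
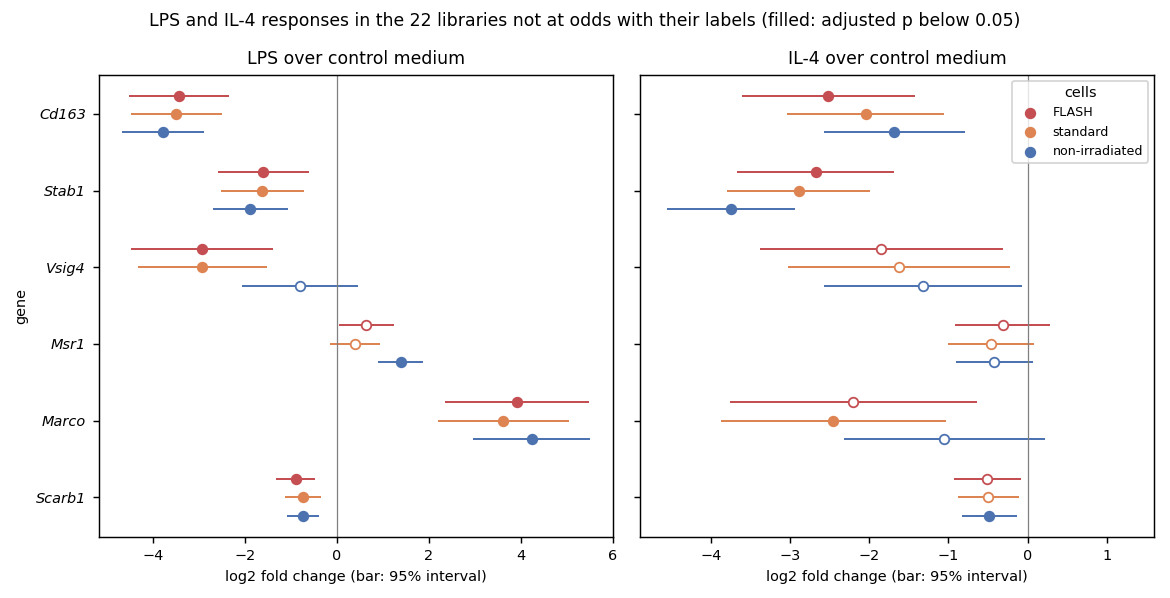
Log2 fold changes for LPS (left) and IL-4 (right) over control medium in FLASH, standard and non-irradiated cells, without the 5 libraries at odds with their labels; bars are 95% intervals and filled points have an adjusted p below 0.05. Marco lay at 3.91, 3.62 and 4.23 for LPS, and Stab1 at -2.68, -2.89 and -3.75 for IL-4, in FLASH, standard and non-irradiated cells.

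Stab1 fell with IL-4 in non-irradiated cells, and without the 5 libraries in FLASH and standard cells too. No member was called higher. Stab1 held 70.3, 47.2 and 39.6 CPM in non-irradiated IL-4 libraries, against 797, 488 and 839 CPM in control medium. The groups were separated several-fold. Of all genes, 17.9% were higher and 17.8% lower in every non-irradiated IL-4 library than in every non-irradiated control-medium library. The log2 fold change was -3.75 ± 0.67 (adjusted p = 0.00244 over all libraries and 3.06e-06 without the 5), and the call held whichever library was left out. Stab1 was the 1 member called in non-irradiated cells over all libraries, where 9.83% of all genes were called (4.9% lower). Its log2 fold change was -2.68 ± 0.47 in FLASH cells (adjusted p = 0.00137) and -2.89 ± 0.43 in standard cells (adjusted p = 0.000252) without the 5 libraries.

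Cd163 held 9.81, 4.21 and 3.91 CPM in non-irradiated IL-4 libraries, against 19.1, 32.8 and 10.4 CPM in control medium. The highest IL-4 library lay just under the lowest control library. The log2 fold change of -1.68 was not called over all libraries (adjusted p = 0.166) and was called without the 5 (SE 0.42, adjusted p = 0.00687). None of the 5 is a non-irradiated library, so this fold was the same in both fits and only the SE differed (0.76 over all libraries). Cd163 was thus lower with IL-4, as it was with LPS, but the IL-4 fall was called only without the 5. It fell by 2.52 in FLASH cells (adjusted p = 0.00411) and by 2.05 in standard cells (adjusted p = 0.00705) without the 5 libraries.

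The other members had smaller log2 fold changes with IL-4 in non-irradiated cells. Scarb1 held 83.1, 115 and 59.6 CPM in non-irradiated IL-4 libraries, against 120, 118 and 112 CPM in control medium, and these ranges overlap. Its log2 fold change was -0.49 (adjusted p = 0.162, and 0.0366 without the 5 libraries). Vsig4 held 1.28, 1.39 and 0.92 CPM in the IL-4 libraries, against 2.03, 15.5 and 1.35 CPM, a log2 fold change of -1.32 that was not called (adjusted p = 0.261, and 0.115 without the 5). Msr1 and Marco had log2 fold changes of -0.42 and -1.05, neither called. With those 5 left out, 3 of 6 members were called in non-irradiated cells (26% of all genes), namely Cd163, Stab1 and Scarb1. The count was 2 of 6 in FLASH cells (12% of all genes) and 3 of 6 in standard cells (14.3% of all genes), the last with Marco at -2.46 ± 0.67 (adjusted p = 0.0214). Over all libraries the counts in FLASH and standard cells were 0 of 6, where 0% and 0.474% of all genes were called by limma. At an unadjusted p under 0.05 there were 2 members and 1184 genes in all in FLASH cells, and 4 members and 1978 genes in standard cells.

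Other markers differed with IL-4 as well, and their part in these results was not tested. The summed level of 10 macrophage markers lay between 7445 and 8073 CPM in non-irradiated IL-4 libraries, against 16888 to 21310 CPM in control medium. The summed level of 10 dendritic cell markers lay between 5650 and 6994 CPM, against 1954 to 3269 CPM. Single dendritic cell genes did not all follow this sum. Of 9 tested, 0 were called higher and 2 lower over all libraries, beside 9.83% of all genes. These were Siglech (-1.55, adjusted p = 0.00923) and Flt3 (-1.31, adjusted p = 0.0375). Without the 5 libraries 3 were called higher and 2 lower, beside 26% of all genes. In bulk RNA, fewer cells of a type and less RNA per cell cannot be told apart.

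**Figure D3:**
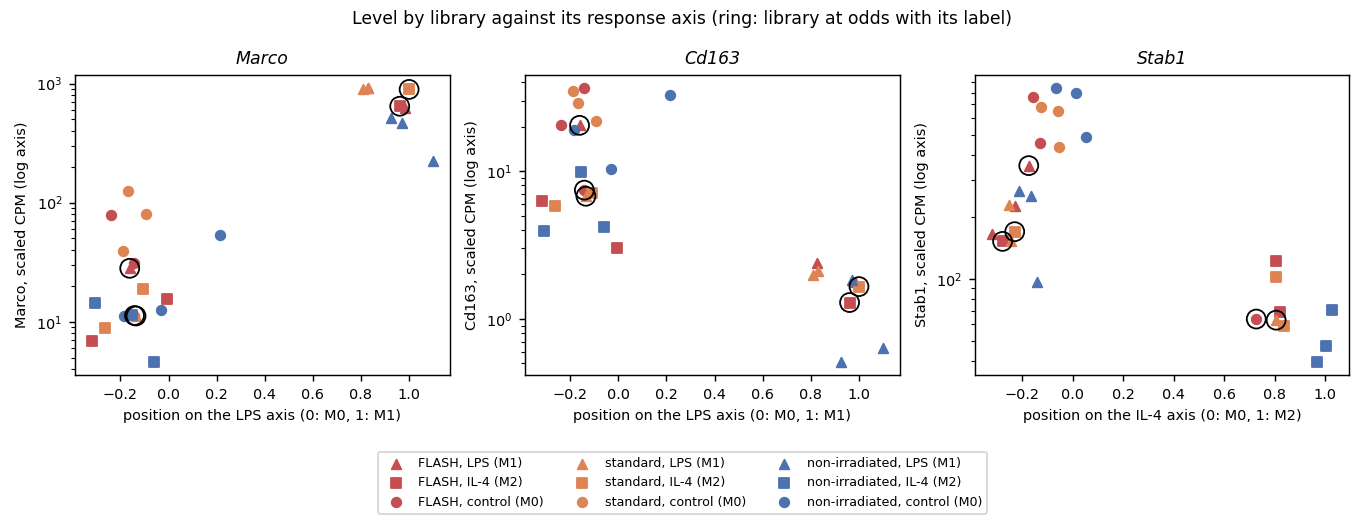
Level of Marco and Cd163 against the LPS axis and of Stab1 against the IL-4 axis in each of the 27 libraries, with CPM on a log axis; colours give irradiation, symbols the labelled condition and rings the 5 libraries at odds with their labels. Marco was at 644 CPM, with an LPS axis value of 0.962, in the library labelled FLASH M2 replicate 1, and Stab1 at 63.7 CPM, with an IL-4 axis value of 0.727, in that labelled FLASH M0 replicate 1.

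Some member levels of the 5 libraries lay in the range of the condition their response genes matched, and others did not. Marco was at 644 CPM in the library labelled FLASH M2 replicate 1 and at 893 CPM in that labelled standard M2 replicate 1, within the 222 to 914 CPM of the 7 other libraries labelled M1. Cd163 was at 1.29 and 1.65 CPM in the same libraries. Stab1 was at 63.7 CPM in the library labelled FLASH M0 replicate 1 and at 62.9 CPM in that labelled standard M1 replicate 1, among the 39.6 to 121 CPM of the 7 other libraries labelled M2. The library labelled FLASH M1 replicate 1, on neither axis, held 20.4 CPM of Cd163, 28.1 CPM of Marco and 19.4 CPM of Vsig4, each inside the range of the 8 other libraries labelled M0. Its Stab1, at 354 CPM, was below their 437 to 839 CPM. Vsig4 was at 4.32 CPM in the library labelled FLASH M2 replicate 1 and at 4.17 CPM in that labelled standard M2 replicate 1, above the 0.884 to 3.63 CPM of the 7 other M1 libraries. In the library labelled FLASH M0 replicate 1 it was at 9.65 CPM, above the 0.92 to 8.41 CPM of the 7 other M2 libraries.

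Vsig4 and Msr1 were higher in irradiated cells on average over the 3 culture conditions. Over all 27 libraries 2 of 6 members were called for FLASH over non-irradiated cells, where 7.72% of all genes were called (3.26% higher). The same 2 were called for standard over non-irradiated cells, where 7.88% of all genes were called (3.36% higher). FLASH and standard cells were set against the same 9 non-irradiated libraries, so their folds are not independent. The median log2 fold change of the 6 members was 0.51 in FLASH cells and 0.61 in standard cells, beside -0.01 over all genes tested in each.

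Vsig4 in control medium held 9.65, 21.8 and 22 CPM in FLASH libraries and 21.8, 16 and 23.5 CPM in standard libraries, against 2.03, 15.5 and 1.35 CPM in non-irradiated libraries. In IL-4 it held 4.32, 4.85 and 6.7 CPM in FLASH libraries and 4.17, 4.53 and 8.41 CPM in standard libraries, against 1.28, 1.39 and 0.92 CPM in non-irradiated ones. In LPS it held 19.4, 1.57 and 3.63 CPM in FLASH and 6.4, 1.36 and 3.45 CPM in standard libraries, against 0.884, 2.84 and 2.52 CPM without irradiation. The irradiated libraries were all above the non-irradiated ones in IL-4, where 9.46% of all genes were likewise higher without overlap for FLASH and 8.01% for standard cells. In control medium the library labelled FLASH M0 replicate 1 fell inside the non-irradiated range, and in LPS the groups overlapped. Over the mean of the 3 conditions Vsig4 was higher by 1.66 ± 0.42 on the log2 scale in FLASH cells (adjusted p = 0.0167) and by 1.58 ± 0.42 in standard cells (adjusted p = 0.0216). In the 22 other libraries the values were 1.52 ± 0.38 (adjusted p = 0.0133) and 1.49 ± 0.37 (adjusted p = 0.0105). Of the 13 irradiated libraries not at odds with their labels, 11 lay above every non-irradiated library of their condition. The call in standard cells was lost without non-irradiated M0 replicate 3 (adjusted p = 0.0543) or non-irradiated M1 replicate 1 (adjusted p = 0.0526).

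The size of the Vsig4 difference varied with the replicate number, which is shared across groups together with a code in the titles whose meaning the labels do not give. Taken against the non-irradiated library of the same number and labelled condition, the mean log2 difference was 2.36 among number 1, 0.32 among number 2 and 2.19 among number 3. The value for number 1 includes all 5 libraries at odds with their labels, so it does not compare like conditions. Without them it was 3.14, from 1 condition only. Non-irradiated M0 replicate 2, at 15.5 CPM, was the highest of the 9 non-irradiated libraries. With replicate numbers 2 and 3 alone, Vsig4 was not called in FLASH cells (1.28, adjusted p = 0.0822) or in standard cells (1.23, adjusted p = 0.087). By condition and without the 5 libraries, Vsig4 was called in control medium at 2.41 ± 0.66 in FLASH cells (adjusted p = 0.0441) and at 2.30 ± 0.59 in standard cells (adjusted p = 0.026). In IL-4 the folds of 1.88 and 1.99 were not called (adjusted p = 0.139 and 0.118), and in LPS they were 0.28 and 0.17.

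Msr1, the macrophage scavenger receptor, held 628, 660 and 1059 CPM in FLASH and 1070, 717 and 958 CPM in standard libraries in control medium, against 494, 364 and 512 CPM in non-irradiated ones. In IL-4 it held 1159, 664 and 679 CPM in FLASH and 1400, 638 and 671 CPM in standard libraries, against 289, 500 and 265 CPM. In LPS it held 910, 1419 and 1198 CPM in FLASH and 654, 1332 and 1056 CPM in standard libraries, against 972, 1363 and 1242 CPM. Every irradiated library was above every non-irradiated one in control medium and in IL-4, and the groups overlapped in LPS. The share of all genes likewise higher without overlap was 11.3% for FLASH and 13.9% for standard cells in control medium. In IL-4 it was 9.46% and 8.01%. Over the 3 conditions Msr1 was higher by 0.66 ± 0.19 in FLASH cells (adjusted p = 0.0371) and by 0.68 ± 0.19 in standard cells (adjusted p = 0.0301). Leaving out the 5 libraries, the values were 0.68 ± 0.15 (adjusted p = 0.0058) and 0.65 ± 0.14 (adjusted p = 0.00473). Over all libraries the call was lost in FLASH cells without any of 11 single libraries and in standard cells without any of 9, with adjusted p up to 0.0854 and 0.0687. With replicate number as a block in limma, neither was called over all libraries (adjusted p = 0.0639 and 0.0525). Both were called with that block once the 5 libraries were left out (adjusted p = 0.0249 and 0.0152).

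By condition, Msr1 was the 1 member called over all libraries, for standard over non-irradiated cells in IL-4 (1.32 ± 0.33, adjusted p = 0.0499), where 1.35% of all genes were called. That call was lost without any of 20 single libraries. Without the 5 libraries Msr1 was called in control medium for standard cells at 0.999 ± 0.23 (adjusted p = 0.0134) and missed it for FLASH cells at 0.89 ± 0.26 (adjusted p = 0.0547). In IL-4 it was called for FLASH cells at 0.99 ± 0.26 (adjusted p = 0.0435) and missed it for standard cells at 0.96 ± 0.26 (adjusted p = 0.051). In LPS the folds were 0.14 and 0.01. The other 5 comparisons by condition called 0 of 6 members over all libraries, beside 2.11% of all genes for FLASH in control medium, 2.53% in LPS and 1.1% in IL-4, and 2.02% for standard in control medium and 2.6% in LPS. Over the 22 libraries not at odds with their labels, the counts were 1 of 6 for FLASH in control medium (5.29% of all genes), 0 of 6 in LPS (4.84%) and 1 of 6 in IL-4 (3.28%). For standard they were 2 of 6 in control medium (7.36%), 0 of 6 in LPS (5.52%) and 0 of 6 in IL-4 (3.38%).

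**Figure D4:**
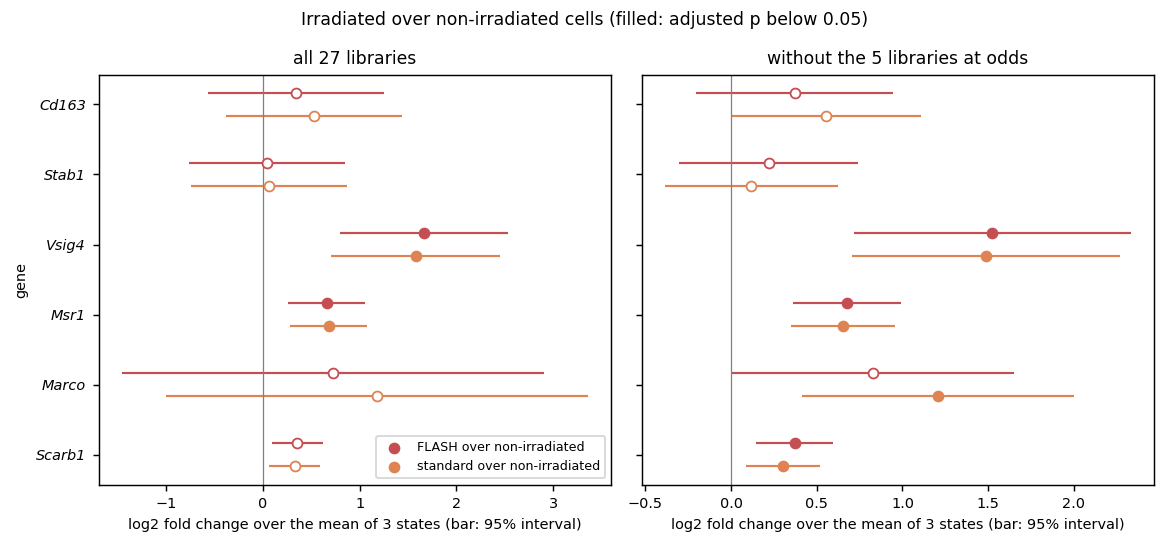
Log2 fold changes of the 6 genes for FLASH and for standard over non-irradiated cells, averaged over the 3 culture conditions, with all 27 libraries (left) and without the 5 at odds with their labels (right); bars are 95% intervals and filled points have an adjusted p below 0.05. Vsig4 lay at 1.66 and 1.58 over all libraries and Msr1 at 0.66 and 0.68, while Stab1 lay at 0.04 and 0.07.

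Scarb1 showed a smaller difference. In control medium it held 104, 155 and 159 CPM in FLASH and 145, 136 and 151 CPM in standard libraries, against 120, 118 and 112 CPM in non-irradiated ones. Each of these libraries except the one labelled FLASH M0 replicate 1 was above the non-irradiated range. For standard cells in control medium, 13.9% of all genes were likewise higher without overlap. In LPS the standard libraries, at 80.5 to 108 CPM, were above the 61.4 to 80.3 CPM of non-irradiated ones. FLASH libraries, at 79.1 to 143 CPM, overlapped them. Of all genes, 11.8% were likewise higher without overlap for standard cells in LPS, and 19.1% without the 5 libraries. Over the 3 conditions Scarb1 was higher by 0.36 ± 0.13 in FLASH cells (adjusted p = 0.0896) and 0.33 ± 0.13 in standard cells (adjusted p = 0.116). In the 22 other libraries it was called in both, at 0.37 ± 0.11 (adjusted p = 0.0263) and 0.30 ± 0.10 (adjusted p = 0.0494).

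Marco over the 3 conditions had log2 differences of 0.73 ± 1.05 in FLASH cells and 1.18 ± 1.05 in standard cells, not called over all libraries (adjusted p = 0.753 and 0.556). Leaving out the 5 libraries, it was 0.83 ± 0.39 in FLASH cells (adjusted p = 0.173) and 1.21 ± 0.37 in standard cells (adjusted p = 0.0351). In LPS the libraries at 914 and 621 CPM in FLASH and at 902 and 908 CPM in standard cells lay above the 514, 222 and 467 CPM of non-irradiated cells. Without the 5 libraries, 18.1% of all genes were likewise higher without overlap in LPS for FLASH and 19.1% for standard cells. In IL-4 the libraries at 6.88 and 15.5 CPM in FLASH and at 8.82 and 18.9 CPM in standard cells stood against 11.4, 4.62 and 14.4 CPM, and overlapped them. Without the 5 libraries, 3 of 6 members were called over the 3 conditions in FLASH cells (14.3% of all genes) and 4 of 6 in standard cells (17.9% of all genes).

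No change with irradiation was called for Cd163 or Stab1. Cd163 in control medium held 7.43, 20.4 and 36.4 CPM in FLASH and 29, 22 and 34.8 CPM in standard libraries, against 19.1, 32.8 and 10.4 CPM in non-irradiated ones. In LPS its standard libraries, at 1.98 to 6.76 CPM, lay above the 0.512 to 1.84 CPM of non-irradiated ones. FLASH libraries, at 1.77 to 20.4 CPM, overlapped them. For standard cells in LPS, 11.8% of all genes were likewise higher without overlap, and 19.1% without the 5 libraries. Stab1 in control medium held 63.7, 759 and 453 CPM in FLASH and 654, 677 and 437 CPM in standard libraries, against 797, 488 and 839 CPM. Over the 3 conditions and without the 5 libraries the log2 differences were 0.37 ± 0.27 and 0.55 ± 0.26 for Cd163 and 0.22 ± 0.25 and 0.12 ± 0.24 for Stab1 in FLASH and standard cells. The 95% interval for Stab1 in standard cells ran between -0.39 and 0.62.

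Markers of other marrow cells were also lower in irradiated cultures, and the part of this in the rise of Vsig4, Msr1 and Scarb1 was not tested. The summed level of 12 neutrophil markers was 34.7 to 139 CPM in FLASH and 38.7 to 89.8 CPM in standard libraries, against 72.9 to 1023 CPM in non-irradiated ones. Over all libraries, 10 of the 12 were called lower in FLASH cells and 9 in standard cells. Of all genes, 7.72% and 7.88% were called there, in either direction. Without the 5 libraries 9 were called lower in each, beside 14.3% and 17.9% of all genes called. None was at 0 in all libraries of an arm. The summed level of 8 B lineage markers was 7.52 to 21.4 CPM in FLASH and 6.17 to 23.9 CPM in standard libraries, against 33.2 to 149 CPM. The summed level of 10 macrophage markers did not overlap in IL-4, at 12720 to 23178 CPM in FLASH and 13504 to 25305 CPM in standard libraries, against 7445 to 8073 CPM in non-irradiated ones. It overlapped in control medium, at 13875 to 27141 CPM in FLASH and 18695 to 25319 CPM in standard libraries, against 16888 to 21310 CPM. In LPS it overlapped too, at 21556 to 28208 CPM and 15429 to 27067 CPM, against 14238 to 28492 CPM. These ranges go by label and include the 5 libraries at odds with their labels. In IL-4 those are FLASH M2 replicate 1 and standard M2 replicate 1, with LPS axis values of 0.962 and 1.001. Of the 10 macrophage markers, 1 was called higher and 1 lower over the 3 conditions in FLASH and likewise in standard cells. These counts are over all libraries and stand beside the same 7.72% and 7.88% of all genes. In FLASH cells Lyz2, at 2969 to 20397 CPM over all libraries, was higher (0.75, adjusted p = 0.0204). Csf1r was lower there (-0.45, adjusted p = 0.0402). Without the 5 libraries, 1 of the 10 was called higher and 1 lower in FLASH cells, and 1 and 2 in standard cells.

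No member was called between FLASH and standard irradiation. Of 24 comparisons (6 members in 3 conditions and over their mean), 0 were called by limma and 0 had an unadjusted p below 0.05, over all libraries and without the 5. Among all genes 0% were called in each of the 4 comparisons. In control medium, Scarb1 did not overlap once those 5 were left out, at 155 and 159 CPM in FLASH, against 145, 136 and 151 CPM in standard libraries, where 11.6% of all genes were likewise higher in every FLASH library. With those 5 left out, the FLASH over standard log2 differences lay between -0.56 and 0.23. For Vsig4 over the mean of the conditions the difference was 0.04 ± 0.41 and for Msr1 0.02 ± 0.16, with 95% intervals of -0.82 to 0.90 and -0.31 to 0.36. The interval of Marco was wider, at -1.25 to 0.50.

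Whether the LPS or IL-4 response differed between irradiated and non-irradiated cells was tested with interaction terms. Of 24 terms (6 members, FLASH or standard, LPS or IL-4), 0 were called by limma and 2 had an unadjusted p below 0.05 over all libraries, and 3 had one without the 5. Of all genes 0.12% were called for FLASH by LPS, 0% for FLASH by IL-4, 0.0902% for standard by LPS and 0% for standard by IL-4. The shares without the 5 libraries were 0.384%, 0%, 0.384% and 0.0226% in the same order. In the 22 other libraries the LPS response of Vsig4 was lower by 2.13 ± 0.94 in FLASH than in non-irradiated cells (adjusted p = 0.304) and by 2.12 ± 0.89 in standard cells (adjusted p = 0.294). The LPS response of Msr1 differed by -0.75 ± 0.37 in FLASH cells (adjusted p = 0.355) and by -0.99 ± 0.35 in standard cells (adjusted p = 0.213). So the LPS fall of Vsig4 that was called in irradiated cells, and the LPS rise of Msr1 that was called in non-irradiated cells, were not shown to differ between them.

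In the wider family of scavenger receptors, 19 other genes were tested. Beside the counts in this list and in those that follow, the share of all genes called was 17.4% with LPS and 9.83% with IL-4 in non-irradiated cells, 7.72% with FLASH and 7.88% with standard irradiation over the mean of conditions. With the 5 libraries left out these shares were 34.7%, 26%, 14.3% and 17.9%. With LPS in non-irradiated cells, 1 of 19 was called higher and 2 lower over all libraries. These were Scarf1, an endothelial-type receptor for modified lipoproteins (1.57, adjusted p = 0.00574), Colec12, a scavenger receptor with a lectin domain (-2.10, adjusted p = 0.0196), and Scara3, a class A relative (-1.45, adjusted p = 0.0298). Leaving out the 5 libraries, 3 were called higher and 7 lower. Among these were Cxcl16, a membrane chemokine that binds oxidised lipoprotein (1.63, adjusted p = 0.000191), and Cd36, the class B receptor for oxidised lipoprotein and fatty acids (-1.88, adjusted p = 5.29e-07). The median log2 fold change of the 19 was -0.28.

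With IL-4 in non-irradiated cells 0 of the 19 were called higher and 3 lower over all libraries, among them the lysosomal proteins Scarb2 (-0.95, adjusted p = 0.00197) and Cd68 (-0.81, adjusted p = 0.00299). Without the 5 libraries 3 rose and 6 fell. Cd36 (0.82, adjusted p = 0.00343) and Cd44, the hyaluronan receptor (0.78, adjusted p = 5.64e-05), rose, and Cd14, the LPS co-receptor (-2.74, adjusted p = 4.63e-05), fell. Cd36 therefore moved with LPS and IL-4 in opposite directions, unlike Cd163 and Stab1, which fell with both.

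With irradiation over the 3 conditions, 1 of the 19 was called higher and 0 lower in FLASH and likewise in standard cells. This was Cd5l, a secreted scavenger protein of tissue macrophages, at 1168 ± 604 CPM in FLASH and 1222 ± 675 CPM in standard libraries, against 711 ± 609 CPM in non-irradiated libraries (SD, n = 9 each). Its log2 fold changes were 1.12 ± 0.31 (adjusted p = 0.0302) and 1.16 ± 0.31 (adjusted p = 0.0229). With those 5 left out, 5 rose and 1 fell in FLASH cells, and 4 rose and 2 fell in standard cells. Cd36 rose by 0.66 and 0.72 (adjusted p = 0.00132 and 0.000452), and Stab2, the relative of Stab1, was at -0.77 and -0.60 (adjusted p = 0.0148 and 0.0394).

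**Figure D5:**
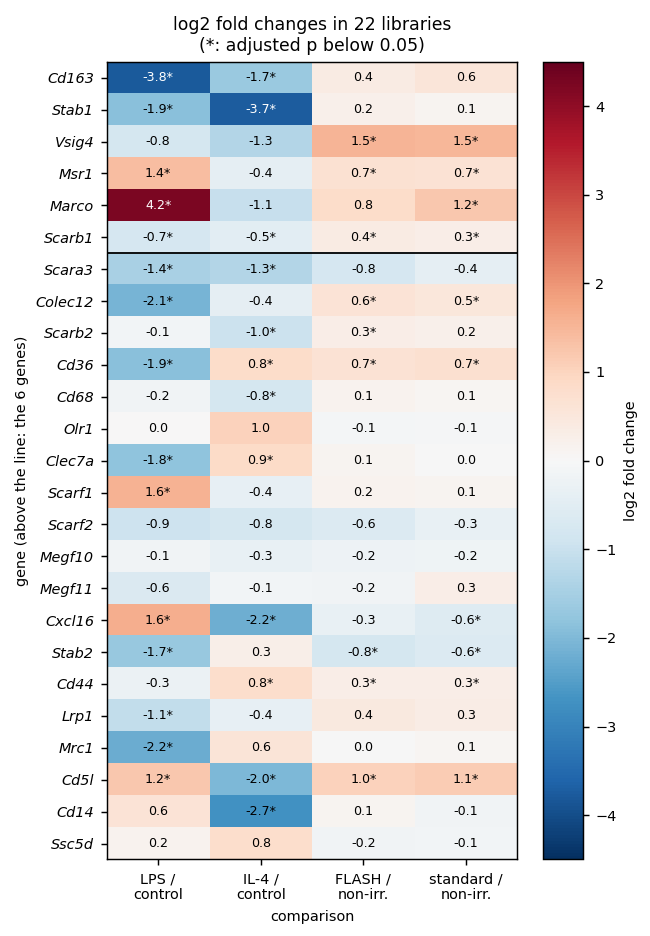
Log2 fold changes of the 6 genes (above the line) and of 19 other scavenger receptor genes for LPS and IL-4 over control medium in non-irradiated cells and for FLASH and standard over non-irradiated cells over the 3 conditions, without the 5 libraries at odds with their labels; asterisks mark an adjusted p below 0.05. Stab1 lay at -3.75 and Cd36 at 0.82 for IL-4, and both irradiation columns show Vsig4 near 1.5 (1.52 and 1.49).

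Vsig4 and Cd163 are genes of resident macrophages, and 23 other such genes were tested. With IL-4 in non-irradiated cells 15 of the 23 were called lower and 0 higher over all libraries, where 9.83% of all genes were called and 4.9% were called lower, with a median log2 fold change of -1.81. Cx3cr1, the fractalkine receptor, was at -3.43 (adjusted p = 0.00085) and the selenoprotein P gene, listed as Sepp1, at -2.93 (adjusted p = 0.00154). In the 22 other libraries 18 fell and 1 rose, the growth factor gene Igf1 (1.19, adjusted p = 9.8e-07). With LPS 2 of 23 were called higher, the liver X receptor gene Nr1h3 (1.89, adjusted p = 0.0247) and Mertk, a receptor for dying cells (0.53, adjusted p = 0.0474). The 6 called lower were led by Sepp1 (-2.50, adjusted p = 0.00324) and the bridging ligand Gas6 (-2.18, adjusted p = 0.00563). With irradiation the list was split: 3 rose and 3 fell in FLASH cells, and 4 rose and 3 fell in standard cells. Id3, a factor needed by Kupffer cells, rose by 1.23 and 1.33 (adjusted p = 0.0322 and 0.0196), and the complement gene C1qb was at -0.83 and -0.82 (adjusted p = 0.00264 and 0.00296). In the fit without the 5 libraries, 4 of the 23 were called higher and 9 lower with LPS. With irradiation 5 were then called higher and 5 lower in FLASH cells, and 6 and 6 in standard cells.

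Among 14 genes for complement receptors, regulators and C3, none was called with irradiation over all libraries in FLASH or standard cells. C5ar2, which had the smallest p in FLASH cells, was at 0.39 (adjusted p = 0.0685), and C3ar1 was at 0.35 in standard cells (adjusted p = 0.0577). With LPS 1 rose, the anaphylatoxin receptor C3ar1 (0.74, adjusted p = 0.0137), and 2 fell, among them C5ar2 (-0.98, adjusted p = 0.00719). With IL-4 0 rose and 2 fell, C5ar2 (-1.29, adjusted p = 0.00194) and C5ar1 (-2.77, adjusted p = 0.022). In the fit without the 5 libraries, 4 of the 14 were called higher and 5 lower with LPS, and 3 and 4 with IL-4. With irradiation 2 were then called higher and 0 lower in FLASH cells, and 1 and 1 in standard cells.

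Haem taken up through CD163 is broken down inside the cell, and 17 genes of haemoglobin and haem handling were tested. With irradiation 3 rose and 1 fell in FLASH and likewise in standard cells. Hmox1, which encodes the haem-degrading enzyme, was at 1368 ± 343 CPM in FLASH and 1501 ± 298 CPM in standard libraries, against 643 ± 141 CPM in non-irradiated libraries (SD, n = 9 each). Its log2 fold changes were 1.08 ± 0.12 (adjusted p = 6.56e-06) and 1.23 ± 0.12 (adjusted p = 1.2e-06). The haem transporter gene Slc48a1 rose by 0.48 and 0.51, and Bach1, a haem-sensing repressor of Hmox1, was at -0.32 and -0.35, all called. Cd163 itself was not called with irradiation. With LPS 1 of 17 rose and 1 fell, Hmox2 (0.92, adjusted p = 0.00632) and the iron exporter gene Slc40a1 (-1.72, adjusted p = 0.0237), and with IL-4 0 rose and 2 fell, Slc40a1 (-2.76, adjusted p = 0.00255) and Bach1 (-0.50, adjusted p = 0.0231). In the fit without the 5 libraries, 6 were called higher and 5 lower with LPS, and 0 and 9 with IL-4. With irradiation 4 were then called higher and 1 lower in FLASH and likewise in standard cells.

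Of 18 genes for lipoprotein uptake and cholesterol efflux, 2 rose and 2 fell with LPS over all libraries. The lysosomal cholesterol carrier gene Npc2 rose (0.89, adjusted p = 0.00524) and the acid lipase gene Lipa fell (-1.58, adjusted p = 0.0151). With IL-4 0 rose and 2 fell, Rxra (-0.77, adjusted p = 0.0057) and Apoe (-2.02, adjusted p = 0.0235). With irradiation none was called over all libraries in FLASH cells, where Plin2, a lipid droplet protein gene, was at 0.50 (adjusted p = 0.0566), and 1 rose in standard cells, Plin2 at 0.52 (adjusted p = 0.0457). In the fit without the 5 libraries, 4 were called higher and 0 lower in FLASH cells, and 4 and 2 in standard cells. With LPS 2 were then called higher and 8 lower, and with IL-4 2 and 3.

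Another 17 tested genes encode factors, receptors and proteases linked to regulation of the members. Maf, which drives macrophage self-maintenance genes, fell with IL-4 by 2.55 ± 0.51 in non-irradiated cells (adjusted p = 0.00499), with 60.8 ± 5.1 CPM there against 362 ± 72 CPM in control medium (SD, n = 3 each). Klf4 rose with IL-4 by 2.74 (adjusted p = 0.00621), and the IL-10 receptor gene Il10ra fell by 1.39 (adjusted p = 0.0376), so that 1 of 17 rose and 2 fell. With LPS 1 rose and 1 fell: Cebpb was at 2.34 (adjusted p = 0.00128) and Cebpa at -1.89 (adjusted p = 0.0301). With irradiation 0 of the 17 were called over all libraries in FLASH or standard cells. Fkbp5, with the smallest p, was at -0.46 and -0.28 (adjusted p = 0.0549 and 0.264). In the fit without the 5 libraries, 0 were called higher and 4 lower in FLASH cells, and 1 and 3 in standard cells. With LPS 3 were then called higher and 2 lower, and with IL-4 3 and 5.

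The genes whose levels most resembled those of each member were sought by Pearson's r over the 27 libraries on the log2 scale among 9321 other genes, as a description only. Libraries share condition and irradiation, so these values are not independent. Aldh2 (0.94), Hpgd (0.94) and Adcy3 (0.94) were nearest to Cd163, and Tspan4 (0.96), Pacs1 (0.94) and Cd93 (0.93) to Stab1. For Vsig4 they were Trp53inp1 (0.89) and Tcn2 (0.89), of which Trp53inp1 is a known p53 target. Trp53inp1 stood at 77.5 ± 26.7 CPM in FLASH and 78 ± 22 CPM in standard libraries, against 47.6 ± 17 CPM in non-irradiated ones (SD, n = 9 each). Dmwd (0.96), Gde1 (0.94) and P4ha1 (0.93) were nearest to Msr1, Rab32 (0.97), Tor4a (0.97) and Znrf1 (0.96) to Marco, and Glipr1 (0.94), Cat (0.93) and Taldo1 (0.91) to Scarb1. Among the members themselves, r was 0.84 between Cd163 and Scarb1, 0.82 between Vsig4 and Scarb1 and 0.76 between Msr1 and Marco, and -0.53 between Cd163 and Marco.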

How the data were processed

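The series holds bulk RNA of mouse macrophages in 27 libraries. Kallisto 0.46.1 and edgeR 3.36.0 in R 4.0.5 are named in the submitters' processing notes as the tools of the authors. The notes also name GRCh38, a human build, so no coordinates were taken from the files. The deposited signal values are CPM scaled between libraries, since column sums differ and do not equal those of plain CPM, by a method not given in the sources used here, and 97.84% of them were whole reads within 0.01 read, too few for count tests. The entry without a symbol held 0.00799% of the total and was left out. Tests ran on log2(CPM + 0.5), which understates changes of low genes. Libraries were grouped by their labels. The genes tested reached 1 CPM in 3 or more libraries. A model of 9 group means was fitted by limma 3.58.1, run in R 4.3.3, using trend and robust moderation, and was checked on simulated data. Adjusted p-values follow Benjamini and Hochberg over all tested genes of a comparison, for 22 comparisons. Mean-of-condition comparisons weight the 3 conditions equally. Libraries were held to be at odds with their labels when they exceeded 0.5 on the axis of another condition or did not reach it on their own. Named genes are the 6 members, the 3 genes most like each (mean of at least 5 CPM) and up to 2 called genes per direction of each list. A few items that this rule or the motif search would name are not reported here. The members and lists were chosen with earlier results of these data known. Promoter windows came from RefSeq. Tables and figures used Python with matplotlib.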

Additional observations from a re-analysis of the deposited data

How the results depend on the processing

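No called fold change of a member changed sign under any alternative tried. Pseudocounts of 0.1 and 2, no filter, a filter of 9 libraries, median-of-ratios scaling and a fit without trend changed no other call than that of Msr1 for standard over non-irradiated cells in IL-4, where 0 members were called with a pseudocount of 0.1, no filter, the stricter filter, no trend, only the compared groups, the replicate block, and in each fit without doubted libraries. Fitting only the compared groups called 5 members for LPS in non-irradiated cells and 1 for standard cells in control medium. Without the 5 libraries at odds with their labels, the count for LPS was 5 in each kind of cells. Of all genes, 24.6%, 23.4% and 34.7% were then called in FLASH, standard and non-irradiated cells. For IL-4 the counts were 2, 3 and 3 in the same order, beside 12%, 14.3% and 26% of all genes. For irradiation they were 1 for FLASH in control medium, 1 for FLASH in IL-4 and 2 for standard in control medium. The shares of all genes there were 5.29%, 3.28% and 7.36%. Over the mean of conditions the counts were 3 for FLASH and 4 for standard, beside 14.3% and 17.9% of all genes. Replicate numbers 2 and 3 alone gave 5 for LPS in FLASH and in standard cells, 2 for IL-4 in each kind of cells, and 1 for FLASH and 1 for standard over the mean of conditions, where the call left was Msr1. Leaving out each library in turn gave 0 to 2 members for LPS in FLASH and in standard cells and 2 to 4 in non-irradiated cells, and for IL-4 0 to 1, 0 to 2 and 1 to 1 in FLASH, standard and non-irradiated cells. For irradiation over the mean of conditions it gave 1 to 3 members in FLASH and 0 to 3 in standard cells, and 0 to 1 in control medium and in IL-4 for each. The counts for irradiation in LPS, for FLASH over standard and for the interactions were 0 each time. Among these alternatives, the share of all genes called is given only for the fit without the 5 libraries. Member counts in the other fits stand without that background.

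Same-numbered libraries deviated from their group means with correlations between -0.852 and 0.783 (median -0.1, 9 of 108 pairs over 0.1). For 0 of 27 libraries was the mean correlation higher with same-numbered libraries than with the other numbers. These values include the 5 libraries at odds with their labels, all of replicate number 1, so they cannot decide whether the numbers pair the samples. The main fit held no replicate block. With the replicate block, 1 member (Vsig4) was called for FLASH and 1 for standard over the mean of conditions, Msr1 having adjusted p of 0.0639 and 0.0525, and 721 genes in all were called for FLASH. Without the 5 libraries and with the replicate block, the counts were 5 for LPS in each kind of cells and 2 for IL-4 in each. They were 1 for FLASH over the mean of conditions and 2 for standard in control medium. The share of all genes called is not given for that fit. Vsig4 had an adjusted p of 0.0571 in FLASH and 0.0311 in standard cells in it. The causes of these changes were not tested. Depth limits Cd163 and Vsig4 most, at 11 and 19 reads in the lowest library.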
